A study of Mus musculus with 12 samples.

Results

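Spermatids, the haploid cells that follow meiosis, switch on a set of genes that is silent elsewhere in the body, and a small group of transcription factors is known for driving that program. The 10 genes described here encode such factors and their close relatives, and were chosen by name: Crem, Creb1, Fhl5, Rfx2, Rfx3, Rfx4, Tbpl1, Gtf2a1l, Sox30 and Sox5. All rows of the deposited transcript table that carry 1 of these symbols and that match, lie within, share a splice junction with or otherwise overlap the exons of a reference transcript on the same strand (classes =, c, j and o) were taken, which gave 62 of the 71967 transcripts and 10 of 24516 genes. The testes came from 12 wild-type C57BL/6 mice, an inbred strain, with 1 library per mouse. Of the mice, 3 each were aged 3 months (3M), 6 months (6M), 12 months (12M) and 18 months (18M). The labels give the mice as wild type and name no transgene or treatment. Whether mice of an age were littermates is not known, and all p-values measure only the spread between these mice.

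CREM is the cAMP-responsive element modulator, whose activator forms in spermatids bind the cAMP-responsive element (CRE) of many haploid genes, and CREB1 is its widely expressed relative. FHL5, also called ACT, is the LIM protein that coactivates CREM in spermatids. RFX2, RFX3 and RFX4 bind the X-box found upstream of ciliary and flagellar genes. TBPL1 is a relative of the TATA-binding protein and GTF2A1L is the germ cell form of the large TFIIA subunit, and both act at the core promoter. SOX30 and SOX5 are HMG-box proteins, the former known for its need in round spermatids and the latter for a short form made in the testis.

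A library held between 50924104 and 71803379 deposited reads, and each gene had at least 900 reads in every library, the lowest being Creb1. The libraries were not equally even along transcripts. Over 265 transcripts of at least 3000 nt, 5 exons and 5 FPKM, each the only row of its gene, the median ratio of coverage in the 5′ to that in the 3′ exons fell between 0.633 (12M mouse 3) and 0.921 (3M mouse 2), with a mean of 0.868 ± 0.0519 at 3M, of 0.850 ± 0.0679 in the 6M mice, of 0.763 ± 0.122 in the 12M mice and of 0.745 ± 0.0837 at 18M (SD, n = 3 libraries). The 8 genes taken to mark neural or epididymal tissue summed to 0.801 to 1.25 FPKM (fragments scaled to transcript length and library size), with Lcn5 and Adam7 listed at 0, whereas 8 elongating spermatid genes summed to 25319 to 36880 FPKM, as the labelled tissue would give. In bulk tissue, fewer cells of a type and less RNA per cell cannot be told apart.

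Starts were read as the 5′ ends of the listed transcripts, reference or assembled, and differed for several of these genes from the first annotated start. Reference transcripts carry annotated ends, so such a start is taken from the annotation and is not measured. A single start carried all of the signal of Rfx2 (chromosome 17, 56775897 to 56831008, minus strand), Gtf2a1l (chromosome 17, 88668660 to 88715150, plus strand) and Creb1 (chromosome 1, 64532804 to 64604548, plus strand) on the mm10 build, and 97.3% of that of Rfx3 (chromosome 19, 27761721 to 28011166, minus strand). Sox5 (chromosome 6, 143828425 to 144209568, minus strand) gave 99.8% of its FPKM from an internal start at 143947106, whereas the 3 long forms that begin at 144209568 summed to 0.0986 to 0.223 FPKM in the 12 libraries. The RefSeq windows of Rfx2, Gtf2a1l, Sox5, Creb1 and Rfx3 begin at these starts, each of which is also that of a reference transcript. The 250 bases before the start (GRCm38.p6, 5′ to 3′ on the strand of the gene) are shown for Rfx2, Gtf2a1l and Sox5, picked from these 5 because they hold a match to a motif searched. Capitals mark every match to 5 short motifs, spelled out with the results and searched on both strands: the full CRE, a short CRE that lies within it, an X-box core, a SOX core and a TATA box.
Rfx2, chr17:56831009-56831258, minus strand: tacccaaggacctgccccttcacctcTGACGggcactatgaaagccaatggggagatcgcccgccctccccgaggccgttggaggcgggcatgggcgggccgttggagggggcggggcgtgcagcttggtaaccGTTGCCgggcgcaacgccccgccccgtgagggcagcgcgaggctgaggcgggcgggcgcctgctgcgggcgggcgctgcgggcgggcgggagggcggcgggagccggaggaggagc
Gtf2a1l, chr17:88668410-88668659, plus strand: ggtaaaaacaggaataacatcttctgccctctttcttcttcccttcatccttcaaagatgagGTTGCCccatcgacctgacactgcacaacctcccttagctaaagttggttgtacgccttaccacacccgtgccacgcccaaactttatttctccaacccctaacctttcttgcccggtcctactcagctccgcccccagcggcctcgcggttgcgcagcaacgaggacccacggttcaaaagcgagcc
Sox5, chr6:143947107-143947356, minus strand: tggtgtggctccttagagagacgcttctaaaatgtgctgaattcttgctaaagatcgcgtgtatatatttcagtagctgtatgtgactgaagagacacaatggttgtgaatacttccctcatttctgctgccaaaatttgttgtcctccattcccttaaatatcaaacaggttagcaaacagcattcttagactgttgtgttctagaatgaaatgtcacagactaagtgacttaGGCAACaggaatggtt

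The X-box core, GTTGCC, was matched in 3 of the 11 windows searched, those shown. It lay 116 bases before the start in Rfx2, 188 before it in Gtf2a1l and, on the opposite strand as GGCAAC, 16 before it in Sox5. Among all 32851 RefSeq windows of this length 10.4% hold it. The short CRE, TGACG, stood 224 bases before the Rfx2 start and is found in 17.8% of all windows. The full CRE, TGACGTCA, which 1.55% of all windows hold, was not matched in any of the 11 windows of the 9 genes that have one. The TATA box, TATAAA, was also not matched there and is found in 12.4% of all windows. The SOX core, AACAAT, present in 9.42% of all windows, was matched in 1 window, that of Fhl5, 44 bases before the start. The windows of Creb1 and Rfx3 matched none of these letters. These matches describe the letters only. RefSeq gave no window for Crem.

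Starts of the other genes were set beside annotated ones in the same way. Fhl5 (chromosome 4, 25199909 to 25244497, minus strand) gave 95.5% of its FPKM from the reference transcript NM_021318, and the rest from an assembled transcript that begins 1621 bases upstream of the nearest GENCODE start. For Sox30 (chromosome 11, 45980310 to 46021420, plus strand), 86.4% came from assembled transcripts that begin 363 bases downstream of the annotated start. Tbpl1 (chromosome 10, 22703877 to 22731971, minus strand) gave 81.5% from a start at 22731971 and 18.5% from the RefSeq start at 22731447. The former lies 33 bases from the nearest GENCODE start. In Rfx4 (chromosome 10, 84756048 to 84906538, plus strand), starts between 84762200 and 84762225 gave 92.1%, and the 2 RefSeq starts 4.69% and 3.16%. The main start of the first group, at 84762225, lies 13 bases from the nearest GENCODE start. The first exon of the Rfx4 transcript that begins at 84756048 stood at only 0 to 0.0645 on the FPKM scale (exon coverage scaled as FPKM) over the libraries. The 4.69% of that transcript thus came from its other exons. The RefSeq windows of Sox30, Tbpl1 and Rfx4 lie before the starts with the lesser shares and are not shown.

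Crem (chromosome 18, 3266354 to 3344812, minus strand) was the most divided gene, with 30 transcripts, 18 of them reference and 12 assembled, from 8 groups of starts. The largest part, 44.5% (40.5% to 47.1% over the libraries), belonged to NM_001110853, a reference transcript of 2253 nt with an internal start. Starts at 3327591 gave 18.2% and those at 3337057 gave 17.8%, while the most upstream start, 7064 bases from the nearest annotated one, gave 9.32%. The 2 most downstream groups of starts held 0.351% and 0.837%.

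Levels per length differed widely between the genes. Fhl5 stood highest, at a mean of 158 FPKM over the 12 libraries, followed by Gtf2a1l at 147, Rfx2 at 132, Sox30 at 83.5, Sox5 at 73.5, Tbpl1 at 69.9, Crem at 61.6, Rfx4 at 22.7, Rfx3 at 6.55 and Creb1 at 2.07. Neighbours in this order had separate ranges over the libraries only between Rfx2 and Sox30, between Crem and Rfx4, between Rfx4 and Rfx3 and between Rfx3 and Creb1. Sox30 exceeded Sox5 in 12 of 12 libraries, although their ranges overlapped. The places of Sox5, Tbpl1 and Crem were not settled by the spread, as Sox5 exceeded Tbpl1 in 7 of 12 libraries and Tbpl1 exceeded Crem in 6 of 12. The order also depends on the full transcript length, which in some genes holds a long last exon region of low coverage. Without its last region Tbpl1 stood at 133 to 145 on the FPKM scale. In Crem the last region, 1776 nt long, had a mean of 14.5, against 204 in the region before it. Among the CREM and CREB1 pair, the spermatid gene was present at a far higher level than its somatic relative, with ranges of 54.9 to 70.6 and 1.87 to 2.35 FPKM.

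**Figure D1:**
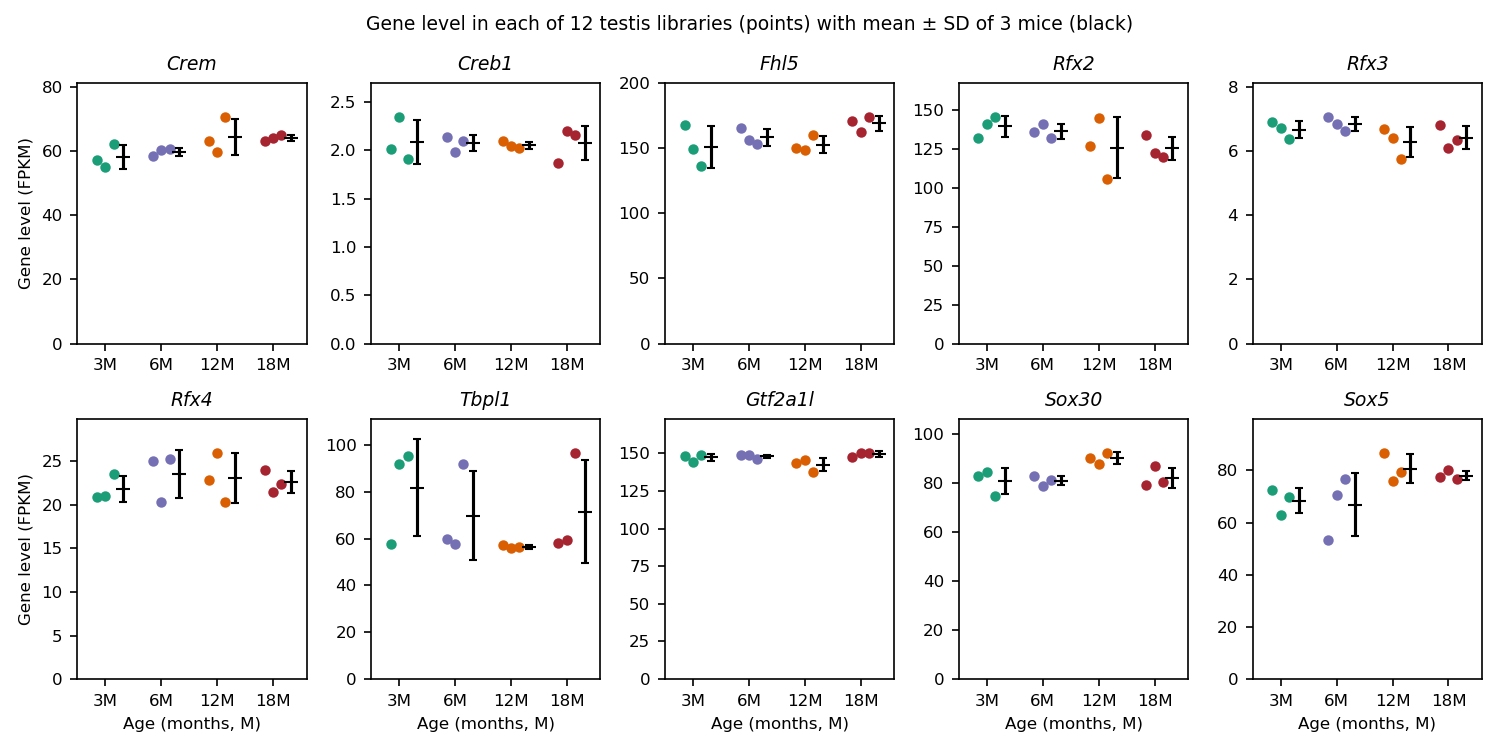
FPKM of each gene (y axis, from 0) in each of the 12 libraries (points) by age in months (x axis), with the mean and SD of the 3 mice in black. Tbpl1 splits into libraries at 57.7 to 59.9 and libraries at 92.0 to 96.8 within 3M, 6M and 18M.

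The first comparison asked whether any of the genes changes with age. No gene of the 10 was called in any of the 6 gene tests (edgeR's quasi-likelihood test on reads summed per gene, called where the p-value after Benjamini-Hochberg correction was at most 0.05, with a difference of at least 1 on the log2 scale also asked for where ages were set in pairs). In the slope on age in months over 12 libraries 0 of 10 were called, against 0.410% of the 18545 genes tested, and 3 of 10 had an unadjusted p-value of 0.05 or less, against 17.5%. In the test of any difference between the ages the counts were 0 (0.0917% of all genes) and 1 (10.3%). Between 3M and 18M they were 0 (0.0496%) and 2 (13.5%), between 3M and 6M 0 (0.0331%) and 0 (4.0%), between 6M and 12M 0 (0.0386%) and 2 (8.48%), and between 12M and 18M 0 (0.0220%) and 1 (3.48%). DESeq2 called 0 of the 10 in each of the 6 tests, beside 14 (12M against 18M) to 576 (slope) of all genes. With 10 genes, 1 gene more or less moves such a share by more than most of these differences.

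The fitted changes were small. Between 3M and 18M the 10 log2 differences lay between -0.17 (Tbpl1) and 0.19 (Sox5), with 8 higher at 18M, 2 lower and a median of 0.02, beside a median of 0.00 among 18130 genes, of which 8988 were higher and 9142 lower. Their median size was 0.08 on the log2 scale, and that of all genes was 0.11. Gtf2a1l was the steadiest, with a log2 difference of 0.04 ± 0.04 (SE) and a within-age SD of log2 CPM (reads scaled to library size) of 0.0359, smaller than that of all but 1.66% of the 9703 genes at 10 CPM or more. Creb1, at 2.09 ± 0.229 FPKM at 3M and 2.07 ± 0.178 at 18M (SD, n = 3), Rfx3, at 6.66 ± 0.270 and 6.41 ± 0.367, and Rfx4, at 21.8 ± 1.51 and 22.6 ± 1.26, also had overlapping mice at the 2 ages.

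**Figure D2:**
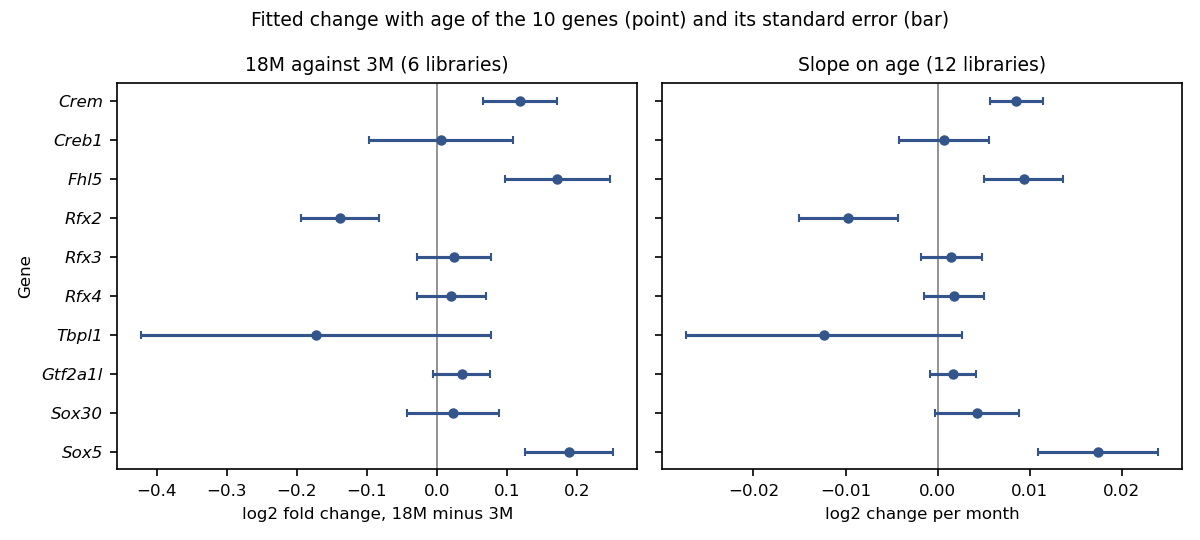
Fitted log2 difference of 18M minus 3M (left, 6 libraries) and slope in log2 units per month (right, 12 libraries) for each gene (y axis), with bars of 1 standard error. The points stay between -0.17 and 0.19 on the left, and Tbpl1 has the widest bar.

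Crem was 57.1, 54.9 and 62.2 FPKM in the 3 mice at 3M, 58.4, 60.2 and 60.7 at 6M, 63.3, 59.7 and 70.6 at 12M and 63.2, 64.2 and 65.0 at 18M. All 18M mice lay above all 3M mice, while 12M held both the highest mouse and one within the 3M range. The slope was 0.00854 ± 0.00286 log2 per month (SE, edgeR adjusted p = 0.175, unadjusted p = 0.0101), and the difference of 18M minus 3M was 0.12 ± 0.05 (adjusted p = 0.377). With the coverage ratio of each library as a covariate, chosen after seeing the data, these became 0.00504 ± 0.00293 and 0.05 ± 0.07. The mean ratio was 0.868 at 3M and 0.745 at 18M, so here and for the genes below this fit cannot separate coverage from age. Its main transcript NM_001110853 ranged from 25.3 to 30.0 FPKM, and its share of the gene was 45.3% ± 2.26 at 3M and 44.3% ± 2.43 at 18M (SD, n = 3).

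Fhl5, the coactivator, was 168, 149 and 136 FPKM at 3M, 166, 156 and 153 at 6M, 149.8, 148 and 160.0 at 12M and 171, 162 and 174 at 18M. The 18M mice were high and close together, but 1 mouse at 3M lay among them. The slope was 0.00934 ± 0.00431 log2 per month (edgeR adjusted p = 0.284), and 18M minus 3M gave 0.17 ± 0.07 (adjusted p = 0.372). With the coverage covariate the difference was 0.10 ± 0.11 on the log2 scale.

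Sox5, read almost wholly from the internal start, was 72.7, 63.0 and 69.7 FPKM at 3M, 53.3, 70.6 and 76.6 at 6M, 86.8, 76.0 and 79.3 at 12M and 77.3, 80.1 and 76.6 at 18M. The lowest mouse of all was at 6M, and the mice of 12M and 18M lay above those of 3M. In that library, 6M mouse 1, the last exon region of 5143 nt stood at 2.87 on the FPKM scale, against 8.51 to 11.9 in the other 11, whereas the region before it, at 105, lay within their range of 96.4 to 137. It had the highest fitted slope of the 10 genes, 0.0174 ± 0.00656 log2 per month (edgeR adjusted p = 0.210), and 0.19 ± 0.06 for 18M minus 3M (adjusted p = 0.306). With the coverage covariate these were 0.0112 ± 0.00760 and 0.11 ± 0.08. Crem and Sox5 were the only genes of the 10 whose FPKM did not overlap between 3M and 18M, both with the higher values at 18M, 2 of 10 against 8.40% of all genes for that direction and 19.9% for either.

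Marker genes of other stages and cell types were read beside these values, and 0 of those of germ cells were called (edgeR). The 8 round spermatid genes summed to 942 to 1215 FPKM at 3M and 1303 to 1317 at 18M, without overlap, and 7 of 8 were fitted higher at 18M with a median log2 difference of 0.27. In the slope 5 of these 8 had an unadjusted p-value of 0.05 or less, all upward, beside 17.5% of all genes. The 8 elongating spermatid genes ranged from 26651 to 29345 at 3M and from 27431 to 32491 at 18M, with 8 of 8 fitted higher and a median of 0.14. Spermatocyte genes gave 365 to 404 and 373 to 383, and spermatogonial genes 60.2 to 67.8 and 62.4 to 70.0. The part of these shifts in the values of Crem, Fhl5 and Sox5 was not tested. Of 8 Leydig cell genes 3 fell with age by the slope test (Cyp17a1, Cyp11a1 and Lhcgr, which serve steroid synthesis and its hormonal control), and the list had a median log2 difference of -0.87. Of 8 genes each, 0 were called for Sertoli cells (4 fitted higher and 4 lower at 18M, median 0.01), macrophages (3 and 5, median -0.16) and myoid and endothelial cells (1 and 7, median -0.22).

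Rfx2, the RFX factor known for its need in spermatids, had a fitted slope below 0. Its level was 132, 141 and 146 FPKM at 3M, 136, 141 and 132 at 6M, 127, 145 and 106 at 12M and 134, 123 and 120.2 at 18M, so that the ages overlapped and 12M held both a high and the lowest mouse. The slope was -0.00970 ± 0.00536 log2 per month (edgeR adjusted p = 0.365), and 18M minus 3M gave -0.14 ± 0.06 (adjusted p = 0.350). The 3 libraries with the lowest Rfx2, 12M mouse 3, 18M mouse 3 and 18M mouse 2, were also the 3 with the lowest ratio of 5′ to 3′ coverage over other transcripts, at 0.633, 0.674 and 0.725, in the same order.

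Along the gene, the 18 exon regions of Rfx2 did not vary alike. Exon regions 1 to 9 together ranged from 71.7 to 135 on the FPKM scale (coverage of an exon scaled as FPKM), lowest in 12M mouse 3 and highest in 12M mouse 2. The last exon region, 1178 nt long, ranged only from 129.6 to 143, with 140.4 ± 2.17 at 3M and 140.3 ± 2.94 at 18M (SD, n = 3). When the coverage ratio of each library was put into the fit as a covariate, a choice made after seeing the data, the slope became 0.00242 ± 0.00327 log2 per month (edgeR adjusted p = 0.914). Within 12M alone, the level was 145, 127 and 106 FPKM in the mice with ratios of 0.875, 0.780 and 0.633. The mean ratio was lower at 18M (0.745) than at 3M (0.868), so the fit cannot separate it from age. The part of coverage in the level of Rfx2 was not tested.

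**Figure D3:**
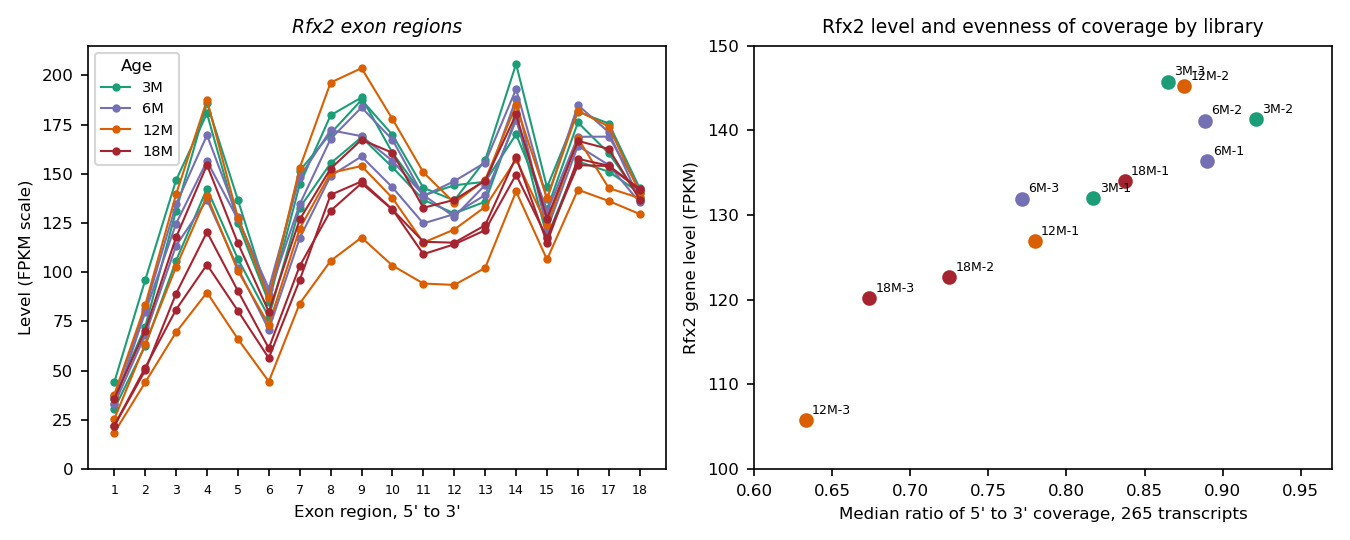
Left, level of each Rfx2 exon region from 5′ to 3′ (x axis) on the FPKM scale (y axis), 1 line per library coloured by age. Right, Rfx2 FPKM (y axis, not from 0) against the median 5′ to 3′ coverage ratio (x axis) of each library. The lines lie at 71.7 to 135 over regions 1 to 9 as 1 set and at 129.6 to 143 in the last region, and the library with the lowest ratio (0.633) has the lowest Rfx2 (106).

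Both reference transcripts of Rfx2 share its start and differ by an exon of 75 nt, the sixth region, found in NM_027787 alone. NM_027787 held 72.4% of the gene at 3M and 73.6% at 18M (means of 3 mice), with a range of 71.7% to 75.8% over the libraries. Rfx3, the relative known for ciliated cells, was divided between NM_011265 (38.3%), an assembled transcript of 8417 nt (32.5%) and another of 3023 nt (19.5%). The share of the second was 29.4% ± 5.82 at 3M and 36.0% ± 3.98 at 18M, and gave the lowest p-value of all 20 shares tested for a difference between ages, 0.158 in an exact permutation test over all assignments of the libraries to the ages. The smallest p-value that test can give is 6.5e-05. With starts within 50 nt pooled, a choice made after seeing the data, 11 shares were tested, and the lowest p-value in the exact permutation test was 0.0294, for the main start of Rfx3, whose share lay between 96.3% and 98.2%.

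Tbpl1 gave the widest spread between mice of an age. It was 57.8, 92.1 and 95.4 FPKM at 3M, 59.9, 57.7 and 92.0 at 6M, 57.4, 55.8 and 56.4 at 12M and 58.3, 59.3 and 96.8 at 18M. The ages 3M, 6M and 18M each held mice below 60 and mice above 90, all 12M mice were low, and no library lay between 59.9 and 92.0. Its within-age SD of log2 CPM, 0.341, exceeded that of 95.7% of genes, and neither the slope (-0.0124 ± 0.0150 log2 per month, edgeR adjusted p = 0.700) nor 18M minus 3M (-0.17 ± 0.25, adjusted p = 0.789) passed.

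The difference between the libraries of Tbpl1 lay in 1 exon region. The last one, chromosome 10 from 22703877 to 22705895 and 2019 nt long, stood at 9.06, 53.5 and 56.2 on the FPKM scale at 3M, 13.0, 9.04 and 55.4 at 6M, 9.31, 7.83 and 8.50 at 12M and 9.01, 9.05 and 59.5 at 18M. High libraries here were the ones high in the gene sum, namely 3M mice 2 and 3, 6M mouse 3 and 18M mouse 3. In contrast, the region just before it ranged only from 297 to 329 over the 12 libraries. All 3 transcripts of the gene have an exon in this last region, so its reads cannot be assigned to one of them.

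Without the last region, the other 7 regions of Tbpl1 together ranged from 133 to 145, with means of 140.2 at 3M, 136 in the 6M mice, 133 in the 12M mice and 140.1 at 18M (exact permutation test over ages, 2-sided, p = 0.0571). The last region alone gave p = 0.536 in the same exact permutation test. These are 2 of 20 measures on sets of exon regions in 4 genes, all chosen after seeing the data, of which the lowest p-value was that of the first exon region of Tbpl1 (exact permutation p = 0.0222), at 78.7 to 84.7 in the 12M mice and 85.7 to 92.2 in the others. A gene on the opposite strand, Slc2a12, ends 4 nt inside this region and was at 0.681 to 0.995 FPKM in all libraries, and at 0.960, 0.734, 0.797 and 0.721 FPKM in the 4 libraries that were high in the last region. The libraries carry no strand information, and what sets the 4 libraries apart was not tested.

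**Figure D4:**
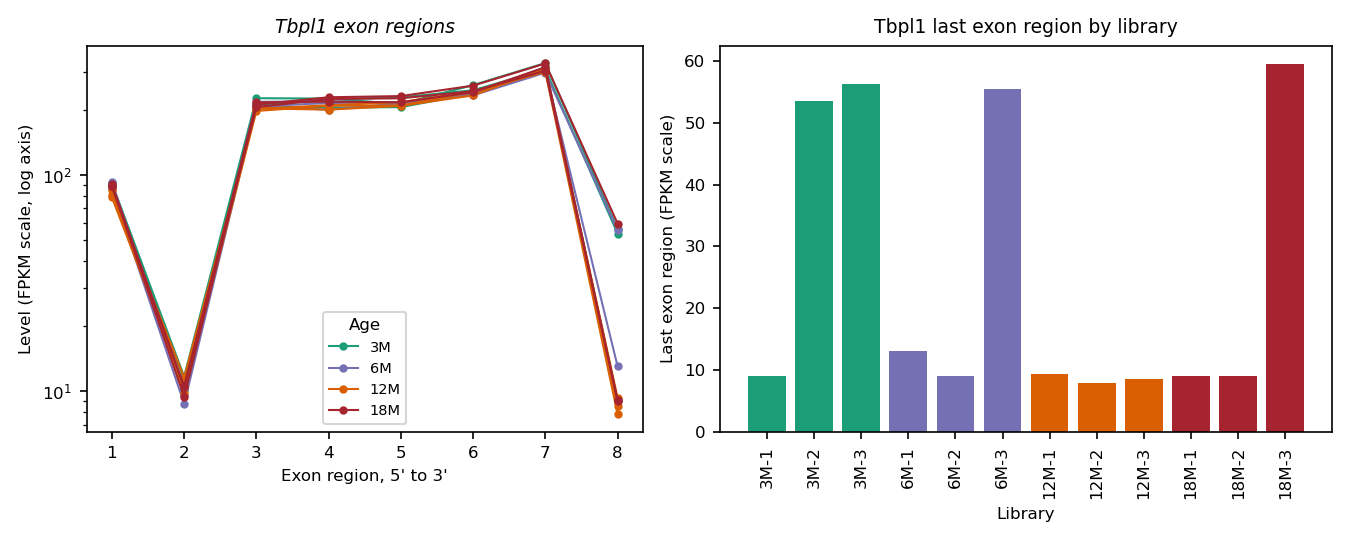
Left, level of the 8 Tbpl1 exon regions from 5′ to 3′ on the FPKM scale (log axis), 1 line per library coloured by age. Right, level of the last region in each library (bars from 0). The lines run close together up to region 7 and part at region 8, where 4 libraries stand between 53.5 and 59.5 and 8 between 7.83 and 13.0.

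Gtf2a1l, the partner of TBP-type factors in germ cells, is a single reference transcript of 1619 nt here and ranged from 138 to 150.5 FPKM, with 147 ± 2.53 at 3M, 148 ± 1.26 in the 6M mice, 142 ± 4.26 in the 12M mice and 149 ± 1.82 at 18M (SD, n = 3). The lowest value was again that of 12M mouse 3.

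Sox30 was 83.1, 84.5 and 74.8 FPKM at 3M, 82.7, 78.9 and 81.4 at 6M, 90.4, 87.7 and 92.5 at 12M and 79.4, 86.8 and 80.4 at 18M. The 12M mice lay above all others, with a log2 difference of 0.15 ± 0.05 for 12M minus 6M (edgeR adjusted p = 0.552). Below the gene sum, the level was divided differently between 2 assembled transcripts. MSTRG.2707.4 was listed at 0 in 9 libraries and at 66.9 in 12M mouse 2, 45.2 in 18M mouse 1 and 38.4 in 18M mouse 3, and in these same libraries MSTRG.2707.3 was at 11.2, 22.8 and 24.9, against 65.5 to 82.8 in the other 9.

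The slope of MSTRG.2707.4 on age was the highest of the 58289 transcripts tested, 1.24 ± 0.455 log2 per month, a fitted value that rests on libraries at 0 and is no measure of size. It was not called by edgeR (adjusted p = 0.619), whereas DESeq2 called it (adjusted p = 1.22e-09), the only transcript of the 60 tested that either tool called. In that slope DESeq2 called 749 of all 58289 transcripts. The 2 transcripts share the first 5 exons in large part and differ in 2 last exons that only MSTRG.2707.4 and MSTRG.2707.1 have. Exon ends differ as well: the second exon ends at 45983612 in MSTRG.2707.3 and at 45983558 in MSTRG.2707.4, the fifth at 46017992 and 46017658. On these last exons MSTRG.2707.4 had 0.694 and 0.212 on the FPKM scale in 12M mouse 2, against 113 on its second exon, with 0.465 and 0.195 against 79.0 in 18M mouse 1 and 0.153 and 0.0544 against 71.0 in 18M mouse 3. Summed over transcripts, the sixth and the last exon regions of the gene stood at 0.170 to 2.08 and at 0.0107 to 0.399 in the 12 libraries, so the exons that set this transcript apart held little coverage.

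Rfx4, an RFX gene known from brain and testis, was also divided differently between libraries. MSTRG.1997.6 was at 16.2 FPKM in 3M mouse 3, 16.1 in 6M mouse 1, 15.4 in 6M mouse 3, 18.7 in 12M mouse 2 and 12.2 in 18M mouse 1, and at 0.807 to 1.43 in the other 7 libraries. MSTRG.1997.2 was at 1.65 to 5.65 in the former 5 and at 8.45 to 11.6 in the latter 7. Their structures differ in the first exon alone, which begins at 84762225 in the former and 84762200 in the latter and ends at 84762385 and 84762324, and the shares of both overlapped at all ages (26.5% ± 36.6 at 3M and 20.6% ± 26.1 at 18M for MSTRG.1997.6, SD, n = 3). On the first exon (FPKM scale), MSTRG.1997.2 stood at 8.31, 8.32 and 9.71 in 6M mouse 1, 6M mouse 3 and 18M mouse 1. MSTRG.1997.6 stood there at 3.26, 2.09 and 1.98, the reverse of their order as transcripts. In 3M mouse 3 and 12M mouse 2 the values were 0.00195 and 0.0216 against 1.65 and 2.98. The exon that sets them apart thus did not bear out the division in each library. With all 5 transcripts that start within 50 nt here pooled, their share of the gene was at least 83.9% in every library, and the gene sum ranged from 20.3 to 26.0 FPKM.

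**Figure D5:**
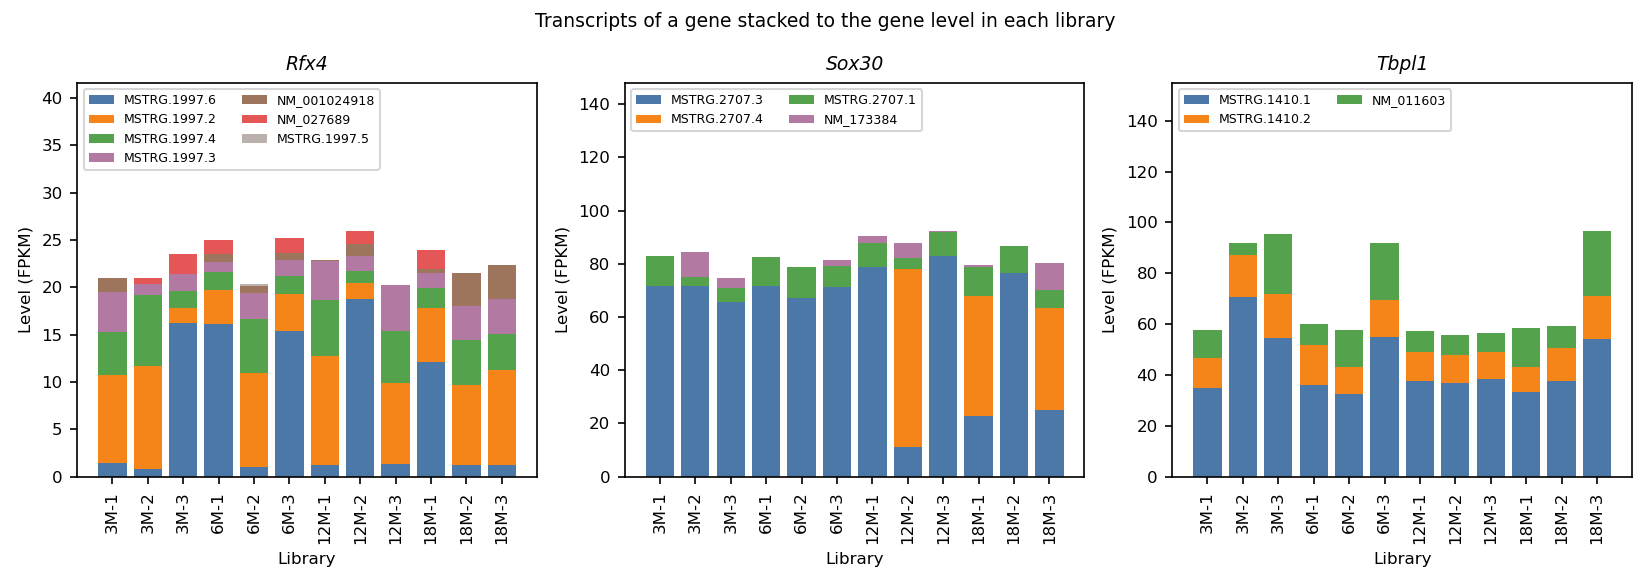
FPKM of the transcripts of Rfx4, Sox30 and Tbpl1 (y axis, from 0) stacked in each library (x axis). The bars of Rfx4 and Sox30 change their make-up between libraries of an age while their height stays between 20.3 and 26.0 and between 74.8 and 92.5, and those of Tbpl1 change in height.

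One exon region of Rfx4 stood apart in 1 library: the sixteenth, 162 nt long, was at 47.3 on the FPKM scale in 3M mouse 2 and at 5.88 to 18.4 in the other 11, while the last region ranged only from 16.3 to 19.4.

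At the level of transcripts, 0 of 60 tested were called in the slope by edgeR, against 0.0103% of all, and 5 had an unadjusted p-value of 0.05 or less, against 7.15%. Between 3M and 18M 0 of 58 were called, against 0.108%, and 2 had such an unadjusted p-value, NM_009056 of Rfx2 and MSTRG.17596.5 of Sox5, against 5.40%. DESeq2 called 1 of 60 in the slope, that of Sox30 above, beside 749 of all 58289. Between 3M and 18M it called 0 of 58, beside 946 of all 54472.

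Genes of the same pathways were read from lists. Of the 17 CREM cofactors and CREB/ATF relatives, 0 were called in any gene test, and 9 were fitted higher and 8 lower at 18M, with a median log2 difference of 0.00. The highest were Fhl4, a LIM relative of Fhl5, at 956 FPKM, Creb3l4, at 184, and Kif17, the kinesin known to carry FHL5, at 114. Of 10 other RFX genes and partners 0 were called (7 fitted higher and 3 lower at 18M), with Tcfl5 at 128 FPKM, Rfx1 at 41.1 and Rfx8 at 32.7 the highest. Of 12 core promoter factors, Tbpl2 was listed at 0 and 0 of the other 11 were called (8 fitted higher and 3 lower), with Gtf2a2, the small TFIIA subunit, highest at 91.1 FPKM. Of 8 SOX relatives 0 were called (3 fitted higher and 5 lower), and Sox6, the close relative of Sox5, was highest at 11.4 FPKM. In the slope, the unadjusted p-value was 0.05 or less for 1 of 17, 2 of 10, 4 of 11 and 1 of 8 genes of these lists in turn, beside 17.5% of all genes.

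Targets were read in the same way. The 12 genes listed as needing CREM were all fitted higher at 18M than at 3M, beside 8988 of 18130 genes, with a median log2 difference of 0.12. Of these 12, 0 were called (edgeR), and 4 had an unadjusted p-value of 0.05 or less in the slope, all upward, beside 17.5% of all genes. Their summed level was 29723 to 32688 FPKM at 3M and 30701 to 35831 at 18M, which overlap, and the highest sum of the 12 libraries was 40058, at 12M. All 8 elongating spermatid markers above are among these 12 genes. Prm2, Prm1 and Tnp2, which package the spermatid genome, had the highest means, at 8272, 6003 and 5542 FPKM. Of the 14 ciliary genes known to have RFX sites 0 were called and 2 had such an unadjusted p-value, beside the same 17.5% of all genes. At 18M 8 were fitted higher and 6 lower, and the 14 genes summed to 693 to 756 FPKM at 3M and 710 to 723 at 18M.

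The genes whose pattern over the 12 libraries was most like that of 4 of the factors were picked by the Pearson correlation of their log2 CPM among 9703 genes, as a description. For Crem these were Gsg1 (r = 0.965), Tekt2 (0.959) and Nme5 (0.959), for Rfx2 Mfn2 (0.990), Gbf1 (0.984) and Ddb1 (0.983), for Tbpl1 Zfp446 (0.874), Rraga (0.807) and Ap5z1 (0.807), and for Sox30 Per1 (0.922) and 4930578E11Rik (0.881). The points share the depth and the evenness of coverage of their libraries.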

How the data were processed

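Total RNA from testes of 12 wild-type C57BL/6 mice (3 at each of 4 ages) had been depleted of ribosomal RNA and sequenced without strand information. Per the labels and the study's methods, the authors aligned reads to mm10 with HISAT2 (version not given in the sources used here) and assembled transcripts with StringTie 1.3.3b. They deposited estimated counts and FPKM per transcript, and per-library coverage of each exon, which is a coverage signal. Estimated counts (50924104 to 71803379 per library) were summed per gene symbol over rows of class =, c, j or o and fitted by the quasi-likelihood method of edgeR 4.0.16 under R 4.3.3, with TMM scaling, filterByExpr and Benjamini-Hochberg correction, with DESeq2 1.42.0 as an alternative. Exon coverage was scaled by the FPKM to coverage ratio of its library. Transcript shares of 10% or more were tested by an exact permutation test (Python 3.11.15, scipy 1.17.1). The fits were tested on simulated data. Ages were compared over mice, as a slope over 12 libraries, as any difference, and in pairs. All 10 genes are named, with transcripts of 10% or more of their gene. Related genes are named where called or among the 3 highest of their list, and the 3 most alike genes were taken among those at 10 CPM or more. Of these, 1 gene is not reported here. Members and lists were chosen with earlier results of these data known. Windows before start sites come from RefSeq (GRCm38.p6), whose coordinates are those of mm10, and gene starts from GENCODE.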

Additional observations from a re-analysis of the deposited data

Results flagged for a closer look

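The 5 rows that carry the symbols of these genes are of other classes (intronic, opposite strand or beyond the gene) and were left out of all sums, yet hold signal. They are MSTRG.9250.1 in an intron of Rfx2 (mean of 2.48 FPKM over the 12 libraries, 208 to 353 reads per library), MSTRG.17597.1 and MSTRG.17598.1 in introns of Sox5 (2.02 and 1.48 FPKM, 72 to 136 and 76 to 128 reads), MSTRG.17595.1 on the strand opposite to Sox5, overlapping its last exon region (1.02 FPKM, 10 to 42 reads) and MSTRG.13755.1 beyond the 3′ end of Fhl5 (0.999 FPKM, 91 to 170 reads). Each was above 0 in every library. Groups of 3 mice are too small for a test of single outlying samples.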

How the results depend on the processing

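For the 10 genes, edgeR called 0 under each alternative of each gene test that kept the adjustment of p-values. Without adjustment of p-values 3 genes passed in the slope and 1 in the test of any difference, and 5 transcripts in the transcript slope. DESeq2 called 1 transcript of the genes in that slope. Of 1536 values of these genes under alternatives 108 had the opposite sign to the value reported, none of them called. Of 208 levels 32 moved beyond the SD, 27 of them when only rows of class = were summed. Counts over all features depended far more on the settings. In the slope they were 76 as reported, 47 with no filter on low counts, 576 with DESeq2, 42 with a replicate block, 3244 unadjusted, 11 with class = only, 10 with the coverage ratio as a covariate and 18 to 192 with each library left out (192 without 18M mouse 1). For any difference, 17 became 395 with DESeq2, 9 with the block, 1913 unadjusted, 7 with class = only, 9 with the covariate and 8 to 47 leaving out libraries. Where ages were set in pairs, the unadjusted counts that follow still ask for a difference of at least 1 on the log2 scale. The unadjusted shares given earlier do not. For 3M against 18M, 9 became 50 with DESeq2, 18 with all 12 libraries in the fit, 150 unadjusted, 19 with class = only, 0 with the covariate and 11 to 18 leaving out libraries. For 3M against 6M, 6 became 21 with DESeq2, 1 with all 12 libraries, 106 unadjusted, 0 with class = only and 7 to 23 leaving out libraries. For 6M against 12M, 7 became 33 with DESeq2, 2 with the block, 2 with all 12 libraries, 139 unadjusted and 3 to 18 leaving out libraries. For 12M against 18M, 4 became 14 with DESeq2, 0 with all 12 libraries, 77 unadjusted and 5 to 14 leaving out libraries. In the transcript slope, 6 became 3 with no filter, 749 with DESeq2, 3 with the block, 4167 unadjusted and 3 to 8 leaving out libraries. For transcripts of 3M against 18M, 59 became 22 with no filter, 946 with DESeq2, 0 with the block, 18 with all 12 libraries, 1400 unadjusted and 8 to 25 leaving out libraries. The cause of these shifts was not tested. Replicate numbers do not pair mice: deviations of same-numbered libraries correlated at -0.0536 to 0.156 (18 pairs) and those of other libraries at -0.160 to 0.0971 (36 pairs), and the block changed no call of the 10 genes. The covariate and the exon measures were chosen after seeing the data. With 3 mice per age, small differences cannot be told from the spread.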
